A study of Mus musculus with 12 samples.

Results

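The 50 genes described here carry a T cell through division: 20 are S phase genes, which copy DNA, and 30 are G2/M genes, which prepare and run mitosis. They were listed by name from what is known of the cell cycle, with earlier results of these data known. They are 50 of the 32285 genes in the count files. Each had at least 1 UMI (unique molecular identifier, 1 count per captured transcript) in every library.

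A resting CD8 T cell keeps most of these genes low, and antigen recognition drives it into repeated divisions that build a clone of cells with the same T cell receptor. E2F factors turn on the S phase genes when a cell commits to copying its DNA, and complexes of MuvB with B-MYB and FOXM1 later turn on the G2/M genes, many of whose products are destroyed at the end of mitosis. A transcript of this set therefore marks a stage of division only together with others of its stage, because some members also serve cells that are not dividing.

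The cells came from female, prediabetic NOD mice, a strain that develops autoimmune diabetes without treatment, at 10 to 15 weeks of age. Single CD8 T cells from hand-picked pancreatic islets were sorted with or without binding of a class I tetramer loaded with a mimic of a peptide of IGRP, a beta cell antigen, and CD8-enriched spleen cells were sorted with binding only and, as the paper states in its results, for CD44. Each of 2 rounds pooled 10 mice, so each of the 3 groups has 2 libraries, and the libraries of a round share their mice and sequencing layout. Transcripts were read from 10x 5′ libraries, with the T cell receptors of the same cells in companion libraries.

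The groups are called islet non-binders (tetramer-negative), islet binders (tetramer-positive) and spleen cells (all tetramer-positive), and paired values are always Round 1 and then Round 2. Cells with under 5% mitochondrial UMIs and at least 200 genes detected were used. An upper limit on the genes detected in a cell (3500 in islets, 2000 in spleen) was applied first and then left out. Without that limit they are called all cells. With the limit, 6429 and 8932 islet non-binders held 29153324 and 40469961 UMIs. The 1204 and 1598 islet binders held 5880696 and 7980997 UMIs, and the 3524 and 2430 spleen cells held 9607921 and 6907642 UMIs. The median cell had 3793 and 3869 UMIs in islet non-binders, 3800 and 4217 UMIs in islet binders and 2590 and 2765 UMIs in spleen cells, so spleen cells were the shallowest. With these totals 14 members had under 10 UMIs in a spleen library, and none had so few in an islet library. Pairs of libraries shared 2 to 64 cell barcodes, at most 1.03% of the smaller library.

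The libraries carried the markers of their sort. The 6 CD8 T cell genes of the marker list summed to 4394 and 4198 CPM (a gene's UMIs scaled to the same total in every library) in islet non-binders, 5567 and 5479.6 CPM in islet binders and 5884 and 5772 CPM in spleen cells, with Cd3e the most abundant. The 5 genes of antigen-experienced T cells, led by Ccl5, summed to 11224 and 9847 CPM, to 21644 and 21158 CPM and to 33682 and 31812 CPM in the same groups. Islet non-binders thus held the least antigen-experienced RNA of the 3 groups, and the part of this difference in the comparisons of whole libraries was not tested. Markers of CD4 T cells (at most 2.05 CPM), dendritic cells (2.15 CPM), NK cells (1.01 CPM) and erythroid cells (1.01 CPM) stayed near 0, and macrophage genes, led by Cd68, summed to 14.8 to 30.1 CPM.

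Summed by role, the members were highest in islet binders in every role but cytokinesis. Summed over all 50 genes, the level was 2434 and 2169 CPM in islet non-binders, 4266 and 3413 CPM in islet binders and 1184 and 1302 CPM in spleen cells, so that the groups stood apart in the order islet binder, islet non-binder, spleen. With no upper gene limit the sums were 3361 and 3234 CPM in islet non-binders, 5120.2 and 5021 CPM in islet binders and 1428 and 1612 CPM in spleen cells, in the same order. The 20 S phase genes summed to 929.7 and 993 CPM in islet non-binders, 1766 and 1656 CPM in islet binders and 476 and 606 CPM in spleen cells, and the 30 G2/M genes to 1504 and 1177 CPM in islet non-binders, 2500.4 and 1757 CPM in islet binders and 708 and 695 CPM in spleen cells. The means over 2 libraries put islet binders 1.78-fold over islet non-binders for S phase genes and 1.59-fold for G2/M genes, and 3.16-fold and 3.03-fold over spleen cells. Over all cells, without the limit, the islet groups overlapped only in the sums of the MCM genes. For cytokinesis both binder libraries stayed below both non-binder ones, at 50.6 and 55.2 CPM against 63.5 and 75.7 CPM. In the other 11 roles binders stayed above non-binders, with lower ratios in most, such as 1.92-fold for the mitotic kinases against 2.67-fold. One gene, Hmgb2, gave 23.7% to 34.2% of all member UMIs in a library.

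**Figure D1:**
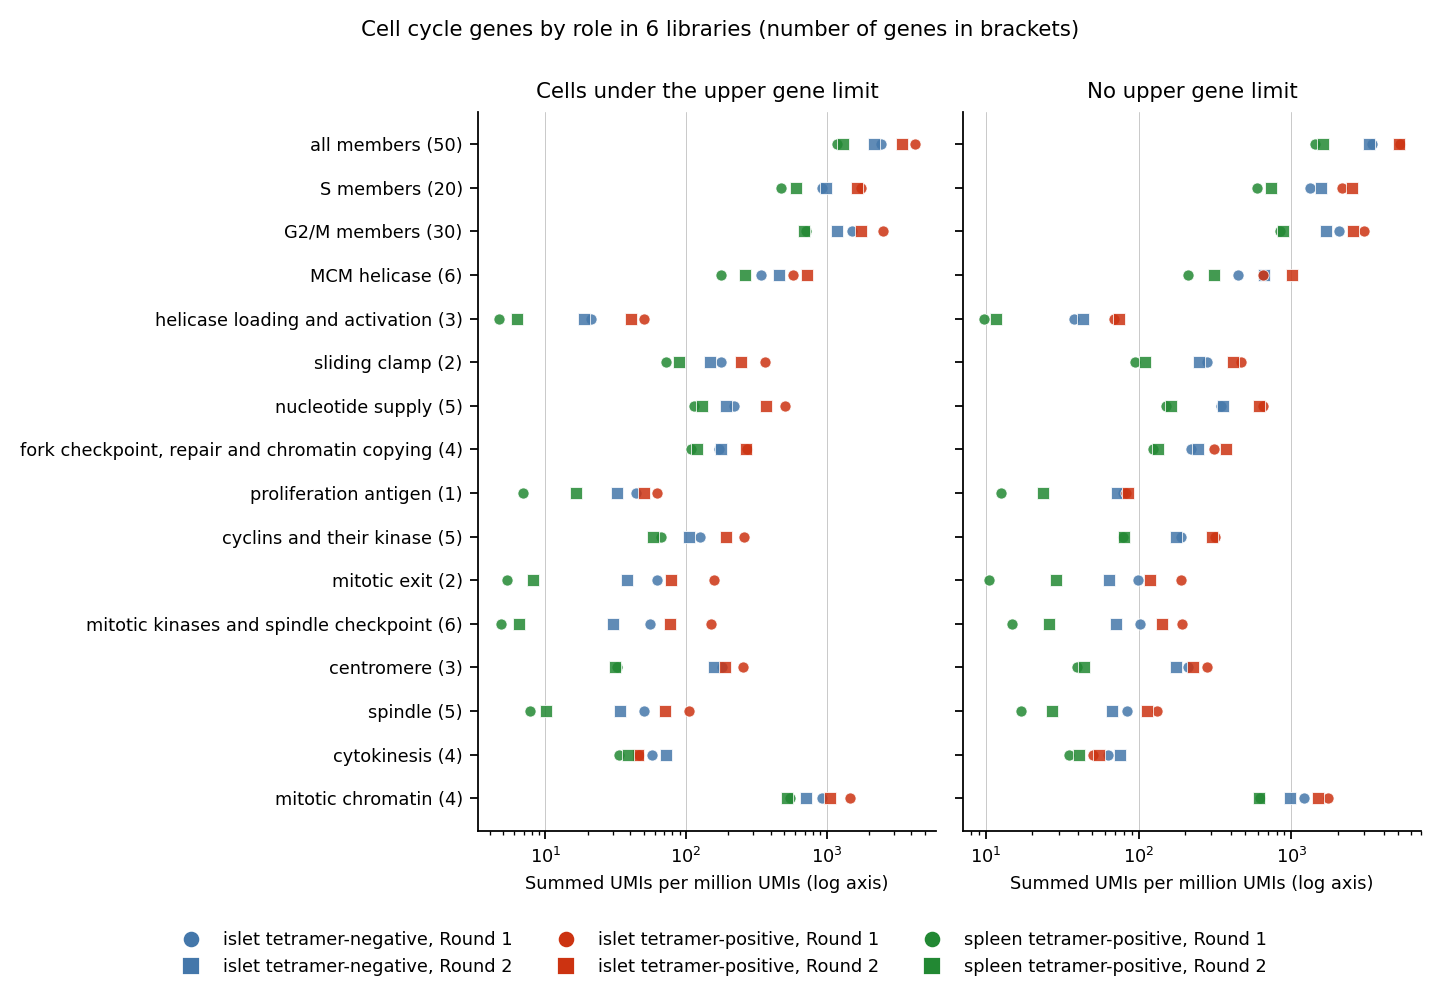
Each point is 1 library, placed at its summed CPM (log axis) for all members, the S and G2/M members and 13 role groups. The left side has cells under the upper gene limit. The right side has all cells with under 5% mitochondrial UMIs and at least 200 genes. With the limit both islet binder points lie to the right of both islet non-binder points in every role group but cytokinesis, and both spleen points lie lowest in every group.

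The limit on genes removed cells rich in these transcripts. It took out 260 and 478 islet non-binders, 52 and 145 islet binders and 95 and 168 spleen cells, which is 2.63% to 8.32% of the cells of a library. These cells carried 37.9% and 44.0% of the member UMIs of islet non-binders, 29.1% and 48.8% of those of islet binders and 23.1% and 31.3% of those of spleen cells. Their share of all UMIs was smaller in every library, at 14.2% and 16.5%, 15.0% and 24.6%, and 7.22% and 15.0%. The median removed cell had 17778 and 15608 UMIs, 19834 and 16316 UMIs, and 7309 and 6479 UMIs. Removed cells also held more than 1 productive β chain more often than kept cells in 5 of 6 libraries (6.92% and 6.28% against 1.72% and 3.65% in islet non-binders, for example), and doublets among them were not counted by a dedicated caller. The summed levels, calls and shares of the groups are therefore given both with the limit and without it, and the levels of single genes and roles mostly with it.

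Among the S phase genes, the MCM genes encode the ring-shaped helicase that unwinds DNA at a replication fork. The 6 MCM genes summed to 341 and 455 CPM in islet non-binders, 576 and 729 CPM in islet binders and 177 and 262 CPM in spleen cells. Every islet library lay above every spleen library, and both binder libraries above both non-binder ones. Over all cells the sums were 445 and 660.5 CPM in islet non-binders, 649.8 and 1005 CPM in islet binders and 212 and 312 CPM in spleen cells, and the islet groups overlapped. Mcm6, the MCM gene with the most UMIs, had 153 and 211 CPM in islet non-binders, 265 and 372 CPM in islet binders and 59.6 and 95.7 CPM in spleen cells, and its 3 groups did not overlap. Mcm2 had 23.5 and 28.3 CPM in islet non-binders, 37.9 and 45.5 CPM in islet binders and 12.2 and 17.5 CPM in spleen cells, in the same order, which over all cells it did not keep. The 3 genes that load and switch on the helicase (Cdc6, Cdc45 and Gins2) summed to 20.9 and 18.9 CPM in islet non-binders, 50.3 and 40.3 CPM in islet binders and 4.68 and 6.22 CPM in spleen cells. Gins2, a part of the GINS complex of the active helicase, had 10.9 and 9.41 CPM in islet non-binders, 23.5 and 18.8 CPM in islet binders and 2.91 and 4.05 CPM in spleen cells, and again its groups did not overlap.

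The sliding clamp holds the polymerases on DNA. Pcna, the clamp itself, also serves repair and had 92.8 and 110.5 CPM in islet non-binders, 121 and 148 CPM in islet binders and 70.0 and 85.7 CPM in spleen cells. Pclaf, a clamp-binding factor of dividing cells, had 84.2 and 38.2 CPM in islet non-binders, 240.4 and 99.0 CPM in islet binders and 2.29 and 3.47 CPM in spleen cells, which rests on 22 and 24 UMIs in spleen. For both genes the islet libraries lay above the spleen libraries, and the spread of Pclaf between rounds was wide in the islets, with Round 1 more than double Round 2. Nucleotide supply, with 5 genes, summed to 221 and 193 CPM in islet non-binders, 509 and 370.4 CPM in islet binders and 115 and 129.9 CPM in spleen cells. Tyms, which makes thymidylate, had 25.7 and 24.5 CPM in islet non-binders, 62.2 and 57.0 CPM in islet binders and 17.9 and 22.0 CPM in spleen cells. Dut, which clears dUTP so that uracil is not built into DNA, had 114 and 90.0 CPM in islet non-binders, 288 and 167 CPM in islet binders and 70.3 and 68.2 CPM in spleen cells. Both binder libraries were highest for Tyms and Dut. The last 4 S phase genes (Clspn, Ung, Uhrf1 and Slbp) guard the fork, repair uracil, copy DNA methylation and bind histone mRNA, and they summed to 170.2 and 177 CPM in islet non-binders, 269.7 and 269 CPM in islet binders and 108 and 119.6 CPM in spleen cells. Slbp, the histone mRNA binding protein, had 129 and 147 CPM in islet non-binders, 181 and 213 CPM in islet binders and 92.1 and 105 CPM in spleen cells, with no overlap between groups.

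Among the G2/M genes, Mki67 encodes the Ki-67 protein that coats mitotic chromosomes and is the standard marker of cycling cells. Mki67 had 44.2 and 32.0 CPM in islet non-binders, 61.7 and 50.2 CPM in islet binders and 6.87 and 16.4 CPM in spleen cells. The islet groups did not overlap but lay close, and both stood above spleen. Over all cells, with no upper gene limit, Mki67 had 79.7 and 72.5 CPM in islet non-binders, 83.0 and 84.9 CPM in islet binders and 12.7 and 23.6 CPM in spleen cells, so that the islet groups still did not overlap, with a smaller gap than under the limit in both rounds. The 5 genes of the mitotic cyclins and their kinase (Ccna2, Ccnb1, Ccnb2, Cdk1 and Cks2) summed to 126 and 105 CPM in islet non-binders, 258 and 191 CPM in islet binders and 66.3 and 58.6 CPM in spleen cells. Cks2, a small subunit of the kinase complex, had 69.1 and 67.2 CPM in islet non-binders, 124 and 104 CPM in islet binders and 60.7 and 47.9 CPM in spleen cells. Ccna2, the cyclin that acts from S phase into early mitosis, had 25.5 and 13.0 CPM in islet non-binders, 57.0 and 26.8 CPM in islet binders and 0.416 and 1.30 CPM in spleen cells, with 4 and 9 UMIs in spleen. Both genes were highest in the islet binder libraries and lowest in spleen.

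Mitotic exit is run by Cdc20 and Ube2c, which serve the ubiquitin ligase that ends mitosis and together had 62.3 and 38.3 CPM in islet non-binders, 157 and 78.6 CPM in islet binders and 5.31 and 8.11 CPM in spleen cells. Ube2c had 52.7 and 26.2 CPM in islet non-binders, 138 and 59.6 CPM in islet binders and 1.56 and 1.88 CPM in spleen cells, on 15 and 13 UMIs in spleen, and its Round 1 islet libraries were more than double those of Round 2. The 6 mitotic kinases and checkpoint genes (Aurka, Aurkb, Birc5, Bub1, Bub1b and Plk1) summed to 55.2 and 30.1 CPM in islet non-binders, 150.5 and 77.2 CPM in islet binders and 4.79 and 6.51 CPM in spleen cells, which was the largest ratio of islet binder to islet non-binder means among the 13 role groups (2.67-fold). Birc5, a subunit of the Aurora B complex that corrects attachments to the spindle, had 38.3 and 19.3 CPM in islet non-binders, 113 and 53.3 CPM in islet binders and 0.833 and 2.61 CPM in spleen cells, on 8 and 18 UMIs in spleen. Within each round islet binders were highest for Ube2c and Birc5, and so were both binder libraries against both non-binder ones.

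The 3 centromere genes (Cenpa, Cenpe and Cenpf) summed to 181 and 159 CPM in islet non-binders, 253 and 188 CPM in islet binders and 32.1 and 31.4 CPM in spleen cells. Cenpa, the histone variant that marks the centromere, supplied most of this with 159.7 and 148 CPM in islet non-binders, 213 and 164 CPM in islet binders and 29.8 and 28.1 CPM in spleen cells, so the islet groups lay close together and far above spleen. The 5 spindle genes (Tpx2, Nusap1, Hmmr, Tacc3 and Kif11) summed to 50 and 34.1 CPM in islet non-binders, 104 and 70.8 CPM in islet binders and 7.81 and 10.1 CPM in spleen cells. Tacc3, which stabilises microtubules of the spindle, had 11.4 and 11.2 CPM in islet non-binders, 26.5 and 20.8 CPM in islet binders and 5.10 and 6.08 CPM in spleen cells, and its groups did not overlap. The 4 cytokinesis genes (Kif20b, Kif23, Anln and Ect2) broke the pattern, at 57.0 and 71.8 CPM in islet non-binders, 45.9 and 45.9 CPM in islet binders and 33.3 and 38.4 CPM in spleen cells. Kif23, a motor of the central spindle, led that group with 43.6 and 61.0 CPM in islet non-binders, 25.3 and 23.4 CPM in islet binders and 23.9 and 23.6 CPM in spleen cells: both islet non-binder libraries were highest, and islet binders lay beside spleen.

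The 4 genes of mitotic chromatin summed to 928 and 707 CPM in islet non-binders, 1469 and 1055 CPM in islet binders and 552 and 526 CPM in spleen cells. Top2a, the topoisomerase that untangles sister chromosomes, had 51.5 and 37.5 CPM in islet non-binders, 99.0 and 58.6 CPM in islet binders and 14.1 and 18.7 CPM in spleen cells. Hmgb2, a DNA-bending protein that is abundant in dividing cells and is also made outside mitosis, had 698 and 515 CPM in islet non-binders, 1180.3 and 842 CPM in islet binders and 405 and 369 CPM in spleen cells. The groups did not overlap for either gene. Smc4, a core subunit of condensin, had 143 and 129 CPM in islet non-binders, 119 and 106 CPM in islet binders and 113 and 109 CPM in spleen cells, with its highest values in islet non-binders and islet binders next to spleen. Counted by level alone, 46 of 50 members had both islet binder libraries above both non-binder ones, and Kif23 and Smc4 were the 2 with both below, against 24.9% above and 21.3% below among the 11277 genes tested. With no upper gene limit the count above was 38, and 2 were again below, against 23.6% and 23.5% of genes.

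The first comparison asked which members differ between islet cells that bind the IGRP tetramer and those that do not. Tyms rose in binders, by a log2 fold change of 1.25 ± 0.18 (SE), adjusted p = 0.0454, and both binder libraries lay above both non-binder ones. It was the member called, 1 of 50 tested higher and 0 lower, where 0.151% of the 11277 genes tested were called higher and 1.04% lower. The other 49 did not pass, yet 48 of the 50 log2 fold changes were above 0, with a median of 0.98 against -0.01 over all genes tested. The median was 0.99 for the 20 S phase genes and 0.98 for the 30 G2/M genes, of which 0 were called by edgeR, 17 had an unadjusted p under 0.05, and DESeq2 called Tacc3 and Ccnb2 (a mitotic cyclin) higher and Kif23 lower. Mki67 (0.56 ± 0.37 (SE), adjusted p = 0.472) and Top2a (0.84 ± 0.36 (SE), adjusted p = 0.299) were among those not called, as was Kif23 (-1.09 ± 0.22 (SE), adjusted p = 0.0905).

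Rounds pair the libraries, and with the round as a replicate block 41 members rose and 1 fell, where 14.4% and 16.1% of all genes were called higher and lower. The 41 were 18 S phase and 23 G2/M genes, including all 6 MCM genes, all 3 helicase loading genes, all 5 cyclin and kinase genes and all 5 spindle genes. In this paired fit Tyms rose by 1.24 ± 0.12 (SE), adjusted p = 1.13e-05, Top2a rose by 0.81 ± 0.17 (SE), adjusted p = 0.00382, and Kif23 fell, with a log2 fold change of -1.11 ± 0.16 (SE), adjusted p = 0.000309. Mki67 did not pass (0.56 ± 0.22 (SE), adjusted p = 0.0665), nor did Rrm1, Ung, Aurka, Cenpa, Anln, Ect2 and Smc4. With all cells, over the gene limit or not, the unpaired fit again called 1 member higher, Tyms (log2 fold change 0.89 ± 0.12 (SE), adjusted p = 0.0388), where 0.122% of all genes were called higher, and the median was lower, at 0.69. Without the limit and with the replicate block 43 members were called higher, where 16.2% of all genes were. DESeq2 called 16 higher and 1, Kif23, lower, where 574 of 11277 genes were called in either direction, and 17 were higher and 1 lower with no filter on low counts, where 711 of 18694 genes were called. Leaving out either islet non-binder library or either islet binder library left 0 members called, with Tyms at adjusted p = 0.189 and 0.318 without a non-binder library and 0.205 and 0.113 without a binder library. A fit to the 4 islet libraries alone also called 0.

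The second comparison set cells sorted with the same tetramer side by side from the islets and the spleen. Nearly the whole set rose in the islets: 44 of 50 members were called higher and 0 lower, where 13.7% of all genes were called higher and 12.9% lower. The 44 were 19 of 20 S phase and 25 of 30 G2/M genes, and the median log2 fold change was 2.43 against -0.03 over all genes tested (1.95 for S phase and 2.63 for G2/M genes). The largest fitted changes were those of Pclaf (6.05 ± 0.77 (SE), adjusted p = 0.00537), Ube2c (5.98 ± 0.73 (SE), adjusted p = 0.00490) and Ccna2 (5.83 ± 0.78 (SE), adjusted p = 0.00617). Their sizes rest on the few spleen UMIs given above, and Ccna2 is 1 of 14 members with under 10 UMIs in a spleen library, which pass the count filter through the islets where they are high. Among the other 36 members, a split made after values were seen, 31 were called higher, with a median of 1.95, and 13 of the 14 were. Mki67 rose by 2.43 ± 0.41 (SE), adjusted p = 0.0106, Top2a by 2.41 ± 0.39 (SE), adjusted p = 0.00972, Mcm6 by 2.14 ± 0.23 (SE), adjusted p = 0.00369 and Hmgb2 by 1.49 ± 0.35 (SE), adjusted p = 0.0279, and each of these 4 had both islet libraries above both spleen libraries.

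By role, all genes of the MCM helicase, helicase loading, sliding clamp, nucleotide supply, cyclins and kinase, mitotic exit, centromere and spindle groups rose. The 6 that did not pass were Ung, Aurka, Kif23 (0.13 ± 0.22), Anln, Ect2 and Smc4 (0.11 ± 0.22). The cytokinesis group thus had 1 of 4 genes called, Kif20b, chosen for mention after its values were seen. With no upper gene limit 43 were called higher, where 15.4% of all genes were, and the largest changes were smaller: 4.15 ± 0.43 for Pclaf, 3.52 ± 0.68 for Ube2c and 3.97 ± 0.32 for Ccna2. With the round as a replicate block 46 were called, where 28.0% of all genes were called higher, Aurka (adjusted p = 0.0307) and Anln (adjusted p = 0.0301) being added. Leaving out the spleen library of Round 1 or of Round 2 lowered the count to 27 or 29. Top2a then had adjusted p = 0.0656 and 0.0602, Hmgb2 had 0.0897 and 0.148, and Mki67 had 0.0513 and 0.0309. Without the Round 1 islet binder library 38 were called and Hmgb2 (adjusted p = 0.0961) and Cks2 (adjusted p = 0.0981) were not, and without that of Round 2 the count was 41. Tissue, cell enrichment, the CD44 sort and depth differ together here and cannot be told apart.

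The third comparison used the same spleen libraries against islet non-binders, and the same non-binder libraries as the first, so the 3 comparisons are not independent. Between these groups tissue, the tetramer sort, cell enrichment, the CD44 sort and depth differ together and cannot be told apart. Here 34 of 50 members rose and 0 fell, where 12.2% of all genes were called higher and 10.2% lower. The 34 were 14 S phase and 20 G2/M genes, and the median was 1.45 against 0.02 over all genes tested (1.02 for S phase, 1.74 for G2/M genes). The largest fitted changes, again on few spleen UMIs, were those of Ccna2 (4.69 ± 0.77 (SE), adjusted p = 0.0128), Ube2c (4.64 ± 0.71 (SE), adjusted p = 0.0106) and Pclaf (4.56 ± 0.73 (SE), adjusted p = 0.0121). Among the 36 members with at least 10 UMIs in every library 22 were called higher, with a median of 1.12, and 12 of the 14 others were. Mki67 (1.88 ± 0.40 (SE), adjusted p = 0.0246), Top2a (1.56 ± 0.38 (SE), adjusted p = 0.0343), Cenpa (2.50 ± 0.27 (SE), adjusted p = 0.00511) and Kif23 (1.22 ± 0.22 (SE), adjusted p = 0.0153) rose as well. For each of these 7 genes both islet libraries lay above both spleen libraries. Pcna, Tyms, Dut, Cks2, Plk1, Smc4 and Hmgb2 were among the 16 that did not pass.

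With the replicate block 44 rose, where 29.2% of all genes were called higher, and those added were Mcm4, Rrm1 and Cdk1, Pcna (adjusted p = 0.00222), Tyms (0.0120), Dut (0.00290), Cks2 (0.0111), Plk1 (0.0296), Smc4 (0.00882) and Hmgb2 (0.000325). With no upper gene limit 38 were called higher, where 13.1% of all genes were. With 1 limit of 3500 genes in both tissues, which keeps more spleen cells, 13 were called and the median was 0.96, where 2446 of 11311 genes were called in either direction. This comparison rests on every library: without the Round 1 or Round 2 islet non-binder library 12 or 19 were called, and without either spleen library 2 were, Cenpa (adjusted p = 0.0385 and 0.0465) and Ccnb2, a mitotic cyclin, chosen for mention after its values were seen. Mki67 then had adjusted p = 0.106 and 0.0538, and Top2a had 0.161 and 0.138.

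**Figure D2:**
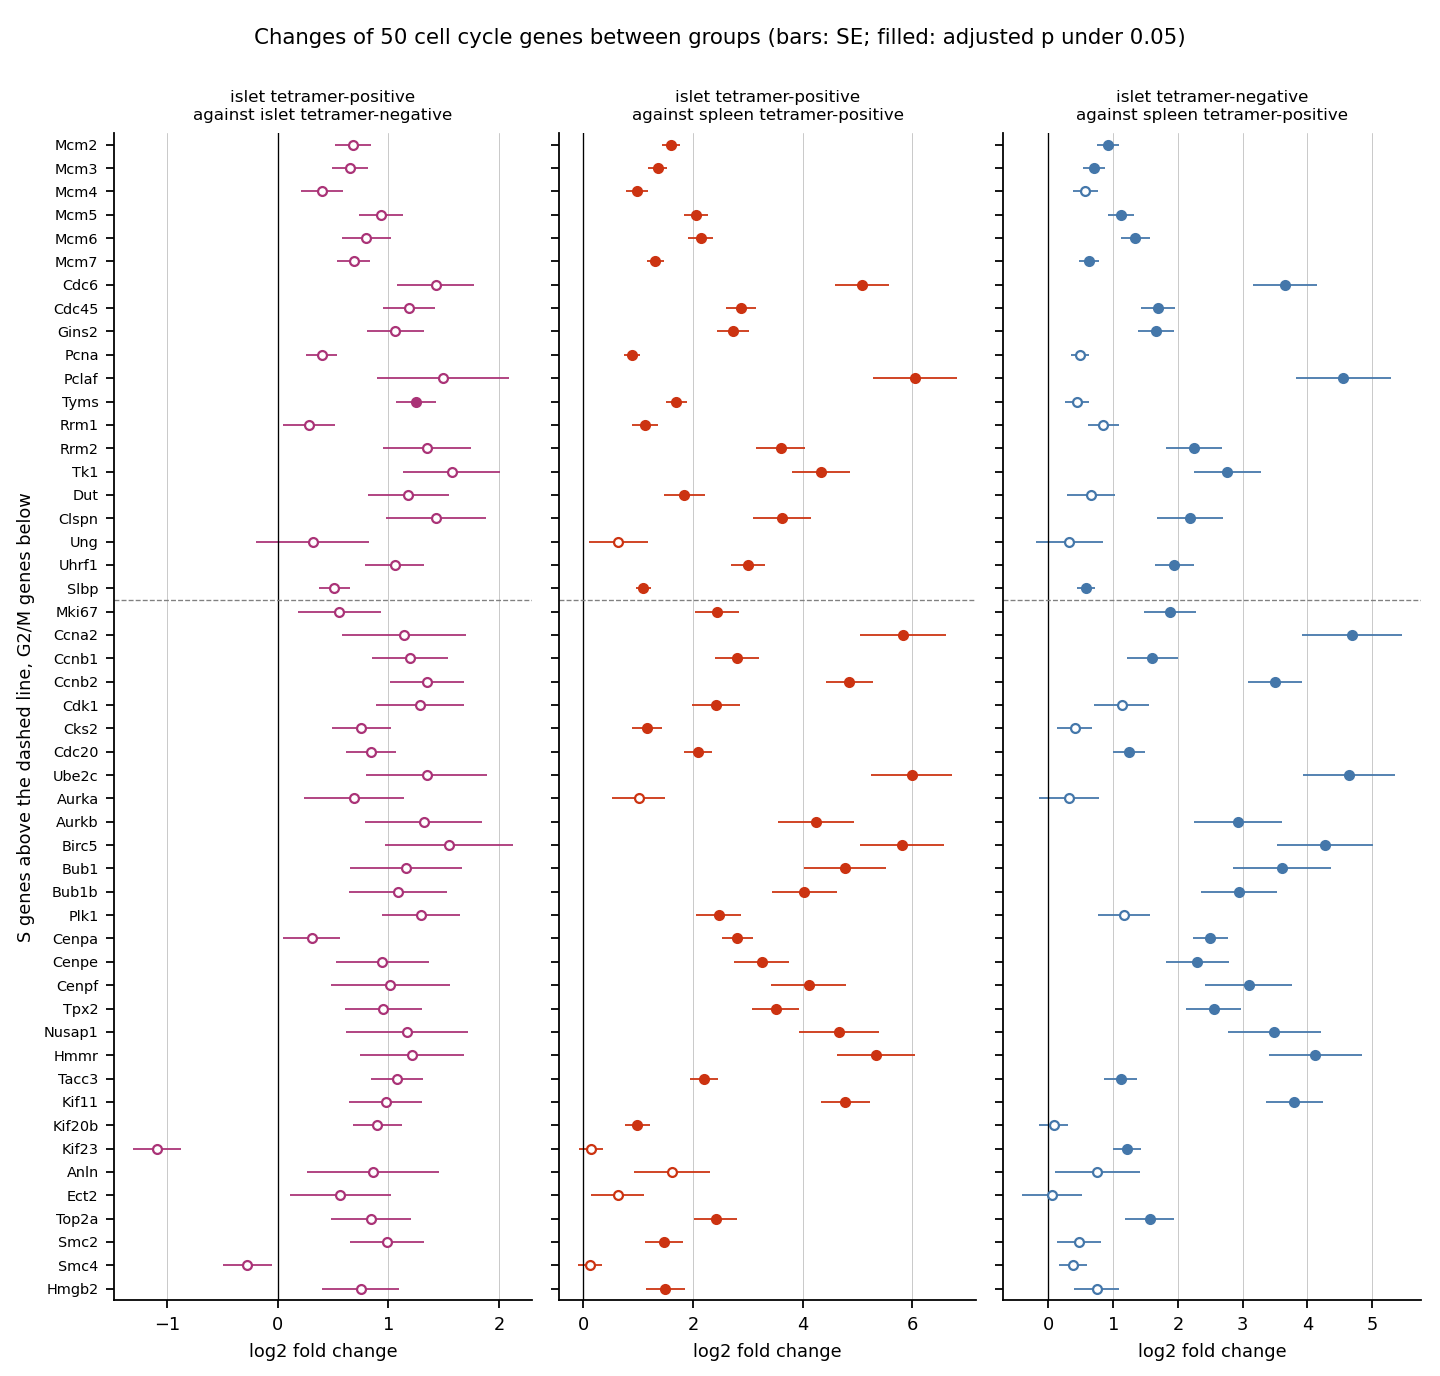
Each point is 1 member's log2 fold change from edgeR with its SE, S phase genes above the dashed line and G2/M genes below, for the 3 comparisons of groups with cells under the upper gene limit, and filled points have an adjusted p under 0.05. Filled are 1, 44 and 34 of 50 points from left to right, and Kif23 and Smc4 are the 2 points left of 0 in the first panel.

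The level of a library can rise because more cells hold these transcripts or because some cells hold more. Each cell was therefore thinned to 1000 random UMIs, and a cell was called past the threshold when at least 3 of them came from members. Past it were 1416 of 6336 and 2150 of 8832 islet non-binders (22.3%, 95% interval 21.3% to 23.4%, and 24.3%, 23.5% to 25.3%). In islet binders it was 442 of 1178 and 588 of 1555 (37.5%, 34.7% to 40.4%, and 37.8%, 35.4% to 40.3%), and in spleen cells 457 of 3452 and 360 of 2373 (13.2%, 12.1% to 14.4%, and 15.2%, 13.7% to 16.7%). The groups did not overlap, and islet binders exceeded islet non-binders by 15.2 and 13.5 points and spleen cells by 24.3 and 22.6 points in the 2 rounds. Over all cells the shares were 24.7 and 27.2% of islet non-binders, 40.1 and 42.1% of islet binders and 14.0 and 15.9% of spleen cells. Cells with fewer than 1000 UMIs, 1.12% to 2.69% of a library, had no value.

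This class is a range and not a sharp state. Exactly 2 member UMIs, just below the threshold, were found in 20 and 22.3% of islet non-binders, 18.9 and 21.9% of islet binders and 20.5 and 21.8% of spleen cells, and exactly 3 in 10.5 and 12.2% of islet non-binders, 12.2 and 14.7% of islet binders and 8.63 and 10.2% of spleen cells. With no thinning, at least 3 member UMIs were found in 78.9 and 86.0% of islet non-binders, 84.6 and 91.3% of islet binders and 56.5 and 62.5% of spleen cells, so this count is lowest in the shallowest libraries, and cycling was not read from it alone. Among islet non-binders with a UMI of any of the 5 antigen-experience genes 24.5% and 25.4% passed the threshold, at median depths of 4014 and 4029 UMIs.

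Single genes known from dividing cells gave the same order of groups. At least 1 Mki67 UMI of 1000 was found in 1.96 and 1.68% of islet non-binders, 4.07 and 3.22% of islet binders and 0.695 and 0.927% of spleen cells. Without thinning the Mki67 shares were 6.94 and 5.35% of islet non-binders, 13.6 and 10.8% of islet binders and 1.82 and 3.17% of spleen cells. At least 1 Top2a UMI of 1000 was found in 2.97 and 2.47% of islet non-binders, 5.77 and 3.67% of islet binders and 1.30 and 1.81% of spleen cells. For both genes the order of the groups was that of the levels and the libraries did not overlap. A higher threshold of 10 member UMIs of 1000, chosen after values were seen, held for 2.83 and 1.69% of islet non-binders, 9.0 and 5.14% of islet binders and 0.0290 and 0.295% of spleen cells, and without the upper gene limit for 4.46 and 3.92% of islet non-binders, 10.7 and 9.18% of islet binders and 0.423 and 0.630% of spleen cells.

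S phase and G2/M genes were also counted apart. At least 3 S phase UMIs of 1000 were found in 5.84 and 6.52% of islet non-binders, 15.8 and 13.9% of islet binders and 1.94 and 2.82% of spleen cells. At least 3 G2/M UMIs were found in 11.5 and 9.24% of islet non-binders, 21.0 and 17.0% of islet binders and 4.81 and 4.38% of spleen cells. Both stages gave the same order, with islet binder libraries highest and no overlap. Without the upper gene limit the S phase shares were 7.96 and 9.42% of islet non-binders, 18.5 and 18.6% of islet binders and 2.59 and 3.35% of spleen cells, and the G2/M shares 13.7 and 11.9% of islet non-binders, 23.7 and 21.6% of islet binders and 5.33 and 4.84% of spleen cells. Cells past both thresholds made up 2.75 and 1.99% of islet non-binders, 9.68 and 5.92% of islet binders and 0.203 and 0.253% of spleen cells. The part of free RNA in these shares was not tested.

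Members differed in how far their transcripts sat in the same cells. For each gene, cells were selected by at least 3 of 1000 UMIs from the other 49 members, which in islet non-binders were 22.2% and 24.2% of cells for Mki67. Those cells held 98.8% and 94.5% of the thinned Ccna2 UMIs, 96.6% and 89.4% of the Birc5 UMIs and 91.0% and 87.5% of the Pclaf UMIs. They held 83.8% and 76.2% of the Mki67 UMIs, 83.8% and 75.7% of the Ube2c UMIs and 64.8% and 55.4% of the Top2a UMIs. In islet non-binders these mitotic and clamp genes were thus concentrated in cells that expressed the rest of the set. In spleen Mki67 was less so, with 12.5% of 24 and 40.7% of 27 UMIs in 13.0% and 15.1% of cells, while on few UMIs the Ube2c share was 80% of 5 and 100% of 3, the Birc5 share 100% of 2 and 100% of 4 and the Pclaf share 20% of 5 and 90% of 10. Top2a was also less concentrated, with 17.4% of 46 and 38.5% of 52 UMIs in 12.8% and 14.8% of cells. In islet non-binders the share of UMIs was 29.1% and 27.2% for Mcm6 in 19.7% and 20.3% of cells, 25.7% and 22.0% for Cenpa in 19.4% and 21.2% of cells and 24.6% and 22.6% for Smc4 in 19.8% and 21.3% of cells. For Kif23 it was 17.2% and 21.1% in 21.4% and 23.0% of cells, the one of these 4 genes below the share of cells selected in both rounds. In islet binders it was 90.9% and 70.7% for Mki67 in 37.4% and 37.3% of cells and 54.9% and 48.5% for Cenpa in 34.5% and 35.4% of cells. Kif23 there lay below the share of cells in Round 1 and above it in Round 2, with 30.8% of 26 and 50% of 36 UMIs in 37.1% and 37.4% of cells.

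Past-threshold and other cells differed in other markers as well. In islet non-binders the median of the 5 antigen-experience genes was 11.7 and 7.93 UMIs per 1000 in cells past the threshold and 2.55 and 2.20 UMIs per 1000 in the others. In islet binders it was 18.9 and 19.3 against 23.9 and 20.2 UMIs per 1000, and in spleen cells 42.7 and 36.0 against 36.7 and 32.7 UMIs per 1000. Cells past the threshold therefore carried more antigen-experience RNA than the others in islet non-binders and spleen cells, and less in islet binders. Their median depth was higher in the islets (4349 and 4035 against 3729 and 3857 UMIs, and 4870.0 and 4658 against 3588 and 4161 UMIs) and lower in spleen (2431 and 2642 against 2640.0 and 2822 UMIs).

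Clone size counts the sampled cells of a family, and a clone was taken as the cells of 1 library with the same paired α and β CDR3 nucleotide sequences. It depends on how many cells were recovered, so a clone of 1 cell may belong to a larger family. Clones of 1 cell, of 2 to 9 cells and of 10 or more cells were compared among cells with exactly 1 productive chain of each kind, 2992 and 5483 islet non-binders, 673 and 1191 islet binders and 1660 and 1668 spleen cells. In islet non-binders they held 1389, 716 and 887 cells in Round 1 and 2959, 1064 and 1460 cells in Round 2. Spleen had 252, 65 and 1343 cells and 162, 110 and 1396 cells. Islet binders had 12 and 14 cells in clones of 1, too few to test, so there 82 and 92 cells of clones of 2 to 9 were set against 579 and 1085 cells of larger clones. Where the upper gene limit was left out, clone sizes were counted again over all cells, so some clones changed class.

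In islet non-binders the set was higher in expanded clones. All 50 members summed to 1572, 3533 and 3664 CPM from the smallest to the largest class in Round 1 and to 1519, 2526 and 3469 CPM in Round 2, so clones of 10 or more cells stood at more than double the level of clones of 1 cell. Mki67 had 14.4, 75.7 and 85.7 CPM in Round 1 and 7.13, 42.6 and 73.6 CPM in Round 2, and Top2a 19.4, 92.7 and 90.6 CPM and 15.2, 44.7 and 78.8 CPM. Ccna2 had 4.60, 51.9 and 50.1 CPM and 2.21, 21.4 and 32.9 CPM, and Mcm6 had 72.7, 221 and 244 CPM and 95, 290 and 394 CPM. Each was lowest in clones of 1 cell in both rounds, as were 45 of the 50 members and 45.2% of all genes tested. Kif23 ran the other way with 56.3, 23.3 and 28.3 CPM and 86.7, 38.3 and 25.7 CPM, and so did Smc4 with 164, 137 and 129 CPM and 153, 107 and 103 CPM.

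Between clones of 10 or more cells and clones of 1 cell, with the library as a block, 45 of 50 members rose and 2 fell, where 23.2% of the genes tested were called higher and 21.0% lower. The 45 were 19 S phase and 26 G2/M genes, and the median was 1.96 against -0.01 over all genes tested. Bub1, a kinase of the spindle checkpoint, rose most (4.08 ± 0.68 (SE), adjusted p = 0.000386), on 0, 23 and 35 UMIs by class in Round 1 and 5, 6 and 36 in Round 2. Because the class of 1 cell had 0 UMIs of Bub1 in Round 1, the size of its change depends on the prior count. Plk1, the kinase that drives entry into mitosis, followed (3.64 ± 0.48 (SE), adjusted p = 6.68e-05), on 2 and 4 UMIs in clones of 1 cell. Ccna2 rose by 3.50 ± 0.19 (SE), adjusted p = 5.55e-08, Mki67 by 2.82 ± 0.16 (SE), adjusted p = 7.2e-08, Top2a by 2.14 ± 0.16 (SE), adjusted p = 7.18e-07 and Hmgb2 by 1.07 ± 0.09 (SE), adjusted p = 9.91e-07. Kif23 fell, with a log2 fold change of -1.59 ± 0.15 (SE), adjusted p = 4.15e-06, and so did Smc4, with -0.63 ± 0.08 (SE), adjusted p = 5.48e-05. Cenpa (-0.19 ± 0.11), Ung and Aurka did not pass. Clones of 2 to 9 cells against clones of 1 cell gave 44 higher and 2 lower, where 17.8% and 14.2% of genes were called, with a median of 1.66.

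Without the upper gene limit 47 members rose and 2 fell, where 25.9% and 24.2% of genes were called, with a median of 2.18. With no replicate block 20 rose and 1 fell, Kif23, where 1026 of 10624 genes were called in either direction. Cells with a UMI of an antigen-experience gene made up 79.1% and 80.0% of clones of 1 cell and 99.3% and 99.4% of the largest class. Restricted to cells with an antigen-experience gene, a choice made after the data were seen, 46 rose and 2 fell, and the median was 1.90, where 4280 of 10459 genes were called in either direction. Without the Round 1 library 41 rose and 3 fell, Cenpa being added (adjusted p = 0.00578), and without the Round 2 library 42 rose and 2 fell. Median depth also moved with clone size, from 3811 to 4694 UMIs in Round 1 and from 3731 to 4493 UMIs in Round 2 between the smallest and the largest class, and its part was not tested.

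In the spleen fewer members could be tested by clone size. The sums over all members were 845 and 949 CPM in clones of 1 cell, 1184 and 1122 CPM in clones of 2 to 9 and 1278 and 1362 CPM in clones of 10 or more. Over all cells, without the limit, they were 1124 and 1237 CPM, 2035 and 1561 CPM and 1604 and 1739 CPM, with clones of 2 to 9 highest in Round 1. Cells with a UMI of an antigen-experience gene made up 90.0% and 93.2% of clones of 1 cell and 100% of the largest class in both rounds, and with only cells holding such a gene, a choice made after the data were seen, 8 members rose and 2 fell, where 1477 of 7402 genes were called in either direction. Only 19 members had enough counts to be tested, and 5 rose and 2 fell between the largest and the smallest class, where 10.3% of genes were called higher and 9.95% lower. Their median was 0.33 against 0.00 over all genes tested. Cks2 had 20.1, 61.7 and 76.0 CPM by class in Round 1 and 12.1, 37.0 and 52.7 CPM in Round 2, and Hmgb2 had 179, 415 and 462 CPM and 161, 299 and 405 CPM. Both were lowest in clones of 1 cell and highest in the largest clones, and both rose, Cks2 by 1.70 ± 0.25 (SE), adjusted p = 3.04e-10 and Hmgb2 by 1.08 ± 0.12 (SE), adjusted p = 2.63e-18. Smc4 fell, with 241, 101 and 72.2 CPM in Round 1 and 234, 117 and 84.2 CPM in Round 2. Its log2 fold change in edgeR was -1.88 ± 0.12 (SE), adjusted p = 4.86e-56. The small p-values of this fit rest on a spread taken almost wholly from all genes together.

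The other calls in spleen were less steady between rounds. Tyms had 3.01, 33.7 and 19.5 CPM and 9.10, 12.3 and 26.2 CPM and rose by 1.75 ± 0.44 (SE), adjusted p = 0.000788, highest in clones of 2 to 9 in Round 1 and in the largest in Round 2. Mcm6 had 38.1, 72.9 and 68.9 CPM and 51.6, 67.8 and 108 CPM and rose by 0.70 ± 0.18 (SE), adjusted p = 0.000853, and Slbp had 45.2, 61.7 and 111 CPM and 91.0, 114 and 107 CPM and rose by 0.49 ± 0.16 (SE), adjusted p = 0.0112. Mcm2 had 14.1, 16.8 and 9.61 CPM and 27.3, 21.6 and 15.5 CPM and fell, with a log2 fold change of -0.95 ± 0.35 (SE), adjusted p = 0.0389. Leaving out the Round 1 library gave 4 higher and 2 lower, with Tyms (adjusted p = 0.405), Slbp (0.878) and Mcm2 (0.386) no longer called. Leaving out Round 2 gave 3 higher and 1 lower, without Tyms (adjusted p = 0.150), Mcm6 (0.210) and Mcm2 (0.514). Without the replicate block 0 were higher and 1, Smc4, lower, and DESeq2 called Cks2 and Hmgb2 higher and Smc4 lower. Mki67 could not be tested under the limit, with 0, 2 and 30 UMIs by class in Round 1 and 0, 0 and 77 UMIs in Round 2. Without the limit 30 members were tested, 9 rose and 4 fell, where 10.7% and 11.1% of genes were called, and Mki67 (log2 fold change 1.51 ± 0.49 (SE), adjusted p = 0.0221) and Top2a (1.40 ± 0.31 (SE), adjusted p = 0.000725) were among those that rose. Clones of 2 to 9 cells against clones of 1 cell gave Cks2 and Hmgb2 higher and Smc4 lower, where 3.36% and 3.32% of genes were called.

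In islet binders no difference passed. The sums over all members were 3639 and 3471 CPM in clones of 2 to 9 cells and 4901 and 3641 CPM in larger clones, so the gap was wider in Round 1. Over all cells they were 4478 and 2872 CPM against 5592 and 5233 CPM, and the gap was wider in Round 2. With clone sizes counted again over all cells, clones of 2 to 9 held 75 and 87 cells and larger clones 617 and 1180. The classes with and without the limit are therefore not the same clones. Of 47 members tested, edgeR called 0 higher and 0 lower, where 0.195% and 0.425% of genes were called, DESeq2 called 0, and 10 had an unadjusted p under 0.05. The median was 0.31, with 37 of 47 above 0, and Mki67 had a log2 fold change of 0.31 ± 0.24. With no upper gene limit 8 of 49 rose, where 0.190% of genes were called higher: Mcm2, Mcm3, Mcm5, Pclaf, Tk1, Dut, Aurkb and Smc2. Without the Round 2 library 4 rose, Mcm2 (log2 fold change 2.55), Mcm5, Dut (0.80) and Hmgb2 (0.59), and without the Round 1 library 0 did. With clone size counted over all libraries of a round 7 rose.

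The difference between the clone size changes of islet non-binders and spleen cells was tested itself, in 1 fit. It was above 0 for 6 members and below 0 for 3, where 4.07% and 4.88% of genes were called higher and lower. All 9 are among the 19 members with enough spleen counts for a test by clone size. Mcm2 (difference in log2 fold change 2.01 ± 0.36 (SE), adjusted p = 0.000374), Mcm6 (1.02 ± 0.22 (SE), adjusted p = 0.00216) and Dut (1.16 ± 0.23 (SE), adjusted p = 0.00113) had a change further above 0 in the islets, where Mcm2 rose while it fell in spleen, and the difference for Smc4 was 1.21 ± 0.15 (SE), adjusted p = 1.13e-06, as it fell less there. Cks2 (-0.81 ± 0.25 (SE), adjusted p = 0.0405) and Kif23 (-1.09 ± 0.29 (SE), adjusted p = 0.0161) had the opposite difference. Mki67 had 0 UMIs in spleen clones of 1 cell, so no difference was read for it. The change of Hmgb2 was not shown to differ between the tissues, with -0.04 ± 0.15 (SE), adjusted p = 0.913.

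**Figure D3:**
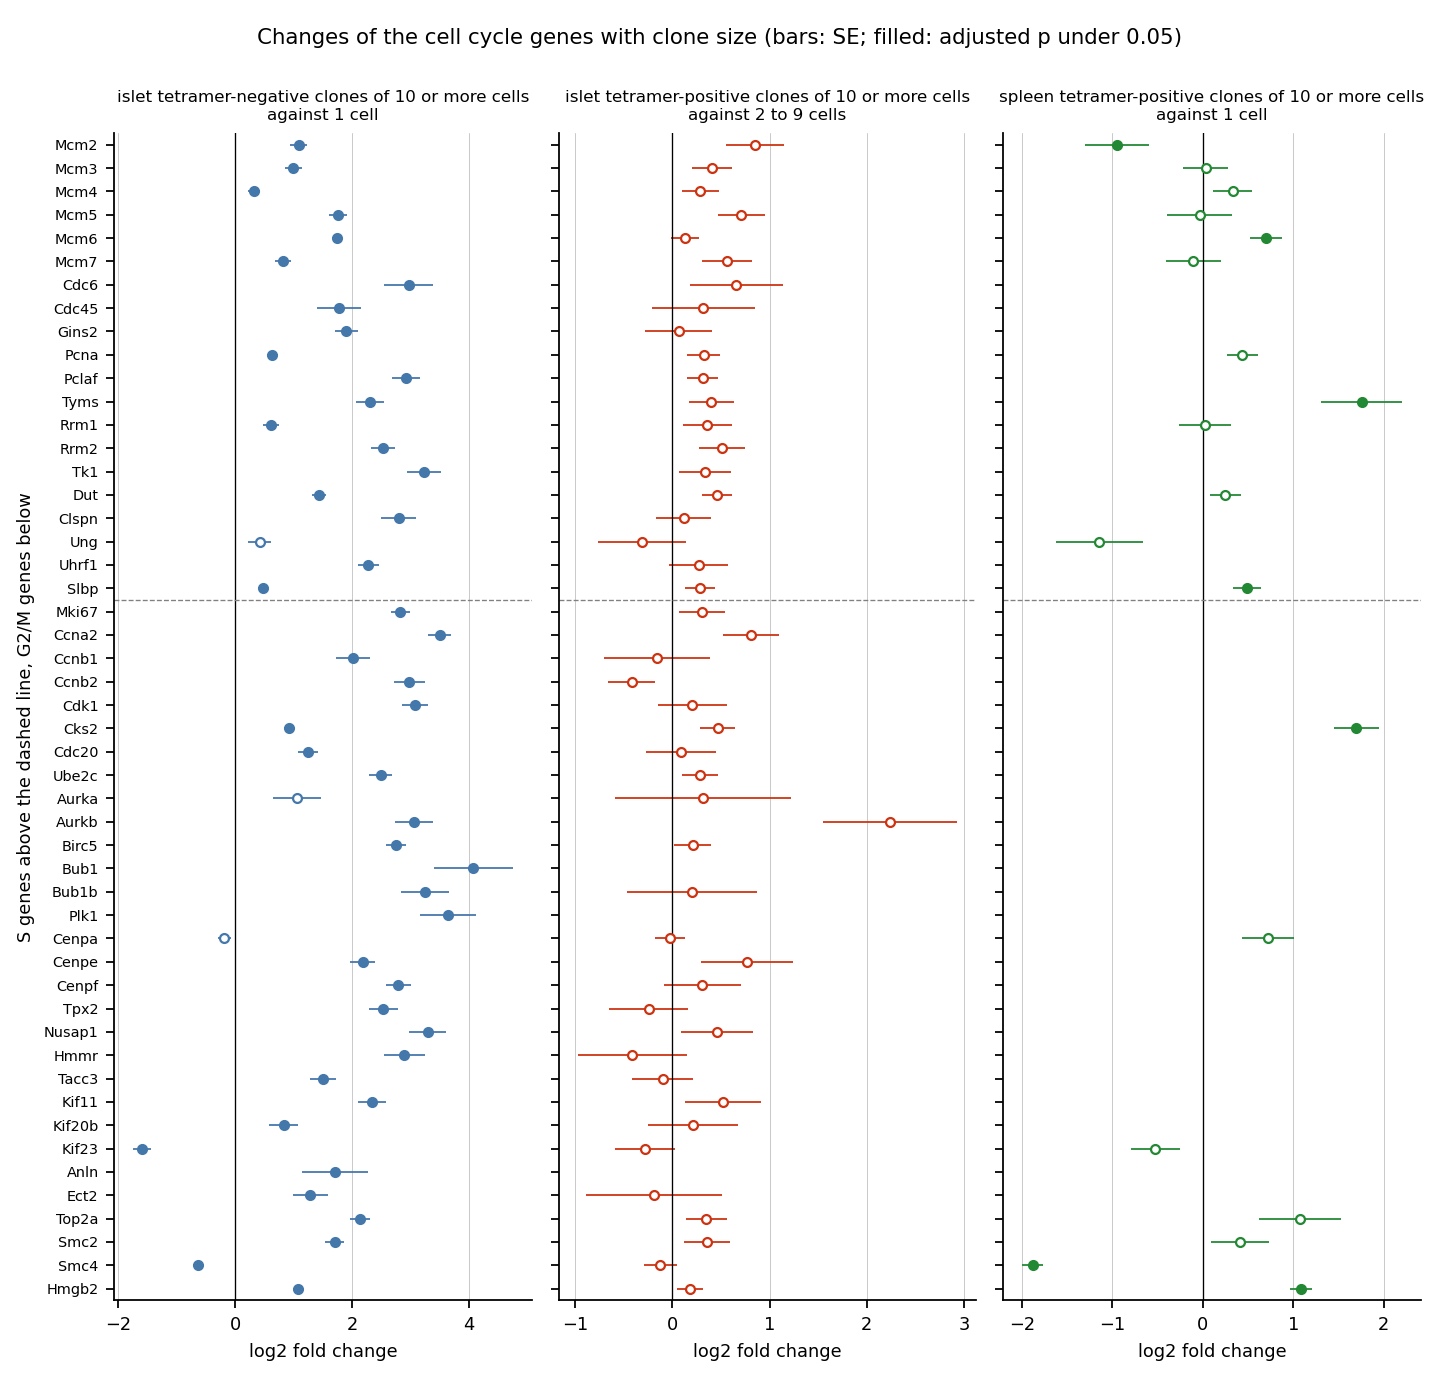
Each point is 1 member's log2 fold change between clone size classes from edgeR with its SE, S phase genes above the dashed line, with cells under the upper gene limit, and filled points have an adjusted p under 0.05. In islet non-binders 47 points are filled and 2 of them, Kif23 and Smc4, lie left of 0, while 0 are filled in islet binders and 7 in spleen cells, where 31 members had too few counts for a test.

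Counted by cell, the share past the threshold in islet non-binders was 15.8, 32.6 and 35.6% from the smallest to the largest class in Round 1 and 18.9, 28.4 and 35.3% in Round 2. A Mki67 UMI of 1000 was found in 0.361, 4.34 and 4.40% and in 0.304, 2.07 and 4.73%. Clones of 1 cell were lowest in both counts and both rounds. Among cells with an antigen-experience gene the shares past the threshold were 17.6, 33.0 and 35.8% and 19.6, 28.4 and 35.4%, in the same order. In spleen the shares were 5.58, 12.3 and 14.0% and 8.64, 17.4 and 15.3%, although clones of 1 cell had the deepest cells there (median 3857 and 4138 UMIs against 2613 and 2837 UMIs in the largest class). In islet binders clones of 2 to 9 cells had 22.2 and 34.8% and larger clones 43.3 and 38.1%. With no upper gene limit the islet non-binder shares were 17.0, 34.9 and 40.3% and 19.3, 31.9 and 41.6%.

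**Figure D4:**
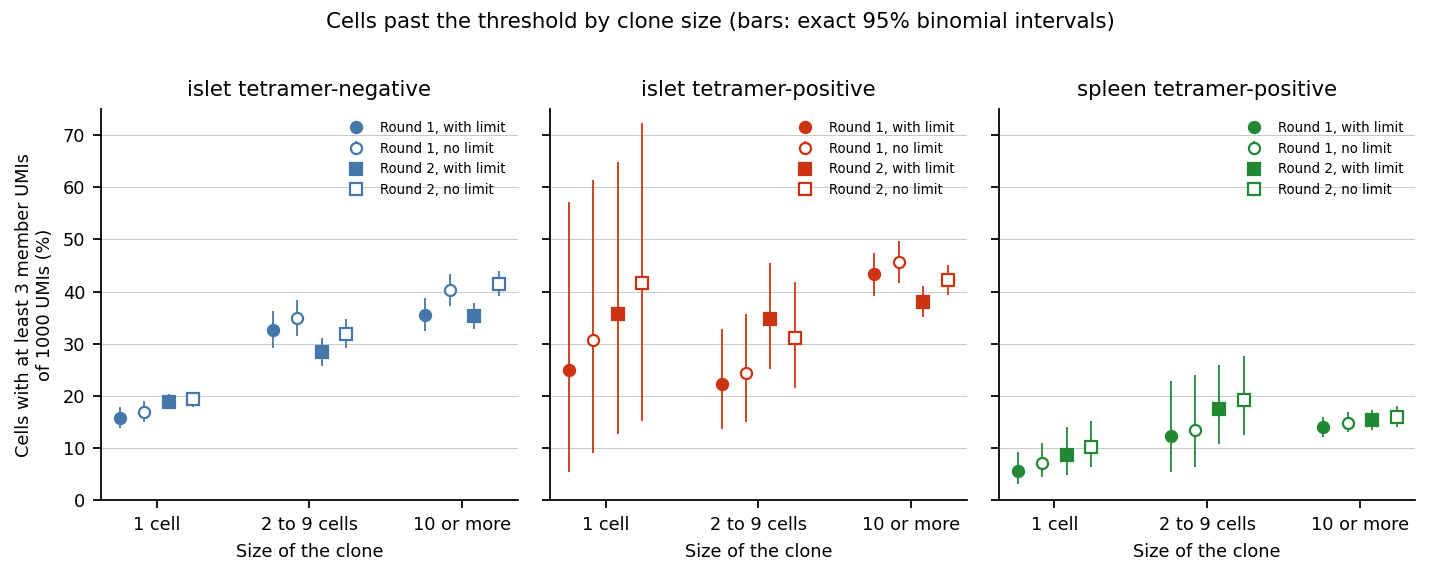
Points are the percent of cells of a library and clone size class with at least 3 member UMIs of 1000, with exact 95% binomial intervals, filled with the upper gene limit and open without it. In islet non-binders both rounds are lowest in clones of 1 cell, at 15.8% and 18.9% with the limit, and the wide bars of islet binder clones of 1 cell come from 12 and 14 cells.

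Large clones were also read singly. The 5 largest held 62.8% and 51.3% of the cells counted in clones of islet binders and 53.1% and 51.2% of those in spleen. In islet non-binders they held 16.7% and 6.44%. The largest size class of islet binders and spleen thus mainly describes a few clones. The median clone of at least 10 cells had 33.3% and 35.3% of its cells past the threshold, 38.4% and 34.4%, and 14.3% and 15.3% in islet non-binders, islet binders and spleen. The largest clone of each library, chosen after values were seen, gave 38.4% of 232 and 34.4% of 96 cells in islet non-binders, 48.3% of 116 and 35.6% of 205 cells in islet binders, and 12.2% of 265 and 18.0% of 323 cells in spleen. The medians and the largest clones of the islets thus lay above those of spleen in both rounds. Single clones of at least 10 cells overlapped, at up to 81.8% and 70% in islet non-binders, 54.5% and 52.6% in islet binders and 30% and 42.9% in spleen, and down to 0 in Round 1 of each group and Round 2 of spleen.

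Other genes of the pathway were read from 6 lists. In the first comparison 0 of 54 other mitosis genes (52 above 0, median 0.90, 17 with an unadjusted p under 0.05), 0 of 41 other replication genes (median 0.66, 19 with p under 0.05), 0 of 51 histone genes (median 0.54, 3), 0 of 27 G1/S regulators (median 0.18, 7) and 0 of 17 DNA damage response genes (median 0.70, 7) were called. Of 14 CDK inhibitors and antiproliferative genes 1 was lower: Foxp1, a factor that keeps T cells quiescent, had 172 and 167 CPM in islet non-binders, 54.8 and 60.8 CPM in islet binders and 128 and 115 CPM in spleen cells and fell, with a log2 fold change of -1.56 ± 0.19 (SE), adjusted p = 0.0331. Both islet binder libraries were lowest for it. With the replicate block 37 other mitosis genes rose and 0 fell, against 26 and 2 other replication genes, 17 and 0 histone genes, 9 and 4 G1/S regulators, 2 and 8 CDK inhibitors and antiproliferative genes, and 7 and 0 DNA damage response genes, where 14.4% of all genes were called higher and 16.1% lower.

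Against spleen, islet binders had 39 of 54 other mitosis genes higher and 1 lower, 18 and 2 of 41 replication genes, 4 and 1 of 51 histone genes, 9 and 5 of 27 G1/S regulators, 3 and 5 of 14 CDK inhibitors and antiproliferative genes and 7 and 1 of 17 DNA damage response genes, beside 13.7% higher and 12.9% lower over all genes. In islet non-binders against spleen, with the same numbers tested, these counts were 25 and 1, 7 and 1, 3 and 0, 6 and 4, 2 and 2, and 6 and 2, beside 12.2% and 10.2%. Between the largest clones and clones of 1 cell of islet non-binders they were 49 and 0 of 54, 31 and 4 of 41, 23 and 5 of 46, 18 and 4 of 26, 4 and 7 of 14, and 8 and 2 of 17, beside 23.2% and 21.0%. In spleen clones they were 4 and 0 of 10, 1 and 2 of 27, 1 and 0 of 15, 5 and 2 of 18, 1 and 3 of 10, and 0 and 1 of 6, beside 10.3% and 9.95%. In islet binder clones they were 1 and 0 of 42, 1 and 0 of 41, and 0 of 36, 25, 12 and 15 in the other 4 lists, beside 0.195% and 0.425%.

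A few of these genes, chosen after values were seen, show both sides of the control. E2f1, an activator of S phase genes, had 9.88 and 9.41 CPM in islet non-binders, 16.3 and 14.7 CPM in islet binders and 1.67 and 1.59 CPM in spleen cells and rose against spleen in islet binders by 3.33 ± 0.27 (SE), adjusted p = 0.00217. The inhibitor Cdkn1a had 38.6 and 46.5 CPM in islet non-binders, 48.1 and 66.4 CPM in islet binders and 10.2 and 4.20 CPM in spleen cells and rose too, by 3.0 ± 0.46 (SE), adjusted p = 0.00850. So an activator and an inhibitor of the cycle were both higher in every islet library than in spleen. Klf2, a quiescence factor of resting T cells, had 444 and 585 CPM in islet non-binders, 52.9 and 149.9 CPM in islet binders and 744 and 1361 CPM in spleen cells and fell, with a log2 fold change of -3.30 ± 0.48 (SE), adjusted p = 0.00755. Ccnd3, a D cyclin of G1, had 136 and 144 CPM in islet non-binders, 97.6 and 115 CPM in islet binders and 378 and 411 CPM in spleen cells and fell as well, with -1.80 ± 0.16 (SE), adjusted p = 0.00238. Both had their highest values in spleen, unlike the members.

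Members are scattered over 16 chromosomes, and 2 pairs lie side by side: Slbp (5:33634952-33652574) next to Tacc3 (5:33658128-33678995), and Tk1 (11:117815526-117826092) close to Birc5 (11:117849251-117855743). Positions are from the mouse GRCm38 annotation. Promoter sequences from RefSeq on GRCm38.p6, 250 bases before each transcript start, were at hand for 44 members (47 promoters). Those of Ccna2, Smc4, Gins2, Mcm4, Tpx2 and Aurkb were not.

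The promoters were searched on both strands for 3 motifs, chosen after the levels were seen, that are known for cell cycle genes: the CHR element of late genes (TTTGAA), the CCAAT box (CCAAT) and the E2F site (TTTCCCGC, TTTCGCGC, TTTGCCGC or TTTGGCGC). TTTGAA was found in 40.7% of the 27 G2/M promoters, 10.0% of the 20 S phase promoters and 16.0% of all 32851 promoters. CCAAT was found in 81.5%, 75% and 33.8%, and an E2F site in 3.70%, 25% and 1.86%. A match is a description of letters only. Shown are the markers Mki67 and Top2a, Ube2c and Hmgb2 for the G2/M genes that moved between groups, and Mcm6 for the S phase genes. Kif23 is shown as well, which moved the other way between the islet groups and with clone size in islet non-binders. Capitals mark the motif letters on either strand, and matches that overlap run together, as in CCAATTGG of Ube2c and TTTGGCGCGAAA of Mcm6. They lie at chr7:135716380-135716629 on the minus strand (Mki67), chr11:99024190-99024439 on the minus strand (Top2a), chr2:164769679-164769928 on the plus strand (Ube2c), chr8:57511593-57511842 on the plus strand (Hmgb2), chr1:128359706-128359955 on the minus strand (Mcm6) and chr9:61946800-61947049 on the minus strand (Kif23).
Mki67: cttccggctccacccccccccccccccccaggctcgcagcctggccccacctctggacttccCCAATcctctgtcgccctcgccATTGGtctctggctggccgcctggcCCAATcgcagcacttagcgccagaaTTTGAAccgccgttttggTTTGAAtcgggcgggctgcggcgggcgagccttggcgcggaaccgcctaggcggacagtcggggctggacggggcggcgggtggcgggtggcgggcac
Top2a: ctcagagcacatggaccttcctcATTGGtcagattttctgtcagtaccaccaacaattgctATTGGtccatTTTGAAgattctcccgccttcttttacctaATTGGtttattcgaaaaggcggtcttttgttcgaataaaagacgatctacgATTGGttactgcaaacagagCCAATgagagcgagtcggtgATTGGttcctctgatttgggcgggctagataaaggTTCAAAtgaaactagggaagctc
Ube2c: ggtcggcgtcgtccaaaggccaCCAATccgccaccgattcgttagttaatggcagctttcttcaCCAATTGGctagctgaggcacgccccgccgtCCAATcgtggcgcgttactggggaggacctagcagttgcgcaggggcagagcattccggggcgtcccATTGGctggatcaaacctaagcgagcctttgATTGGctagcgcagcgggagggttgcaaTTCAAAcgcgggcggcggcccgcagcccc
Hmgb2: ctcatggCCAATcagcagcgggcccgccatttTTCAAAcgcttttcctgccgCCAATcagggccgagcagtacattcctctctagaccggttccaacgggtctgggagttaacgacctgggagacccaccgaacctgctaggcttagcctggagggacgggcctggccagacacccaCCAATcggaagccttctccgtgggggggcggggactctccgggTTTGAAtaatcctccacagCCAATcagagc
Mcm6: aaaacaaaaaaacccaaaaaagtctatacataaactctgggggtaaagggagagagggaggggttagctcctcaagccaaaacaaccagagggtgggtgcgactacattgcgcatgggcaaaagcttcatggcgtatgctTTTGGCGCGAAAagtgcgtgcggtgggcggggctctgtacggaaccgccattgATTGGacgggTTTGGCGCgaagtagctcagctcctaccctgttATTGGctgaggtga
Kif23: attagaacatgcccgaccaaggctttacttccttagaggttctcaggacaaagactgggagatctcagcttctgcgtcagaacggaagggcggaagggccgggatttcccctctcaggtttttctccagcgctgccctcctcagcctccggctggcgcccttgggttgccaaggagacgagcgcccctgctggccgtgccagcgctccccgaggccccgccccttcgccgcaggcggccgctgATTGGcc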

How the data were processed

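UMI counts per gene and cell were deposited by the authors as Cell Ranger output (5.0.1 in the file header) on mm10, with 1 contig table per T cell receptor library. Cells with mitochondrial UMIs of 5% or more, or with fewer than 200 genes, were left out. The upper limits of 3500 and 2000 genes were applied or not. The members and lists were chosen with earlier results of these data known.

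Counts were summed per library and tested in edgeR 4.0.16 (R 4.3.3, limma 3.58.1) with TMM, filterByExpr and quasi-likelihood F-tests, all 6 libraries in 1 fit, and adjusted by Benjamini-Hochberg over all genes tested. Clone size classes were summed per library and fitted with the library as a block. Called means an adjusted p under 0.05. CPM use all UMIs of the library, without TMM. Cells were thinned in Python 3.11.15 (numpy 2.4.6, scipy 1.17.1, pandas 2.3.3, seed 1), and plots were drawn with matplotlib 3.10.9. Intervals of shares are Clopper-Pearson at 95%, and cover counting error only. No p was given for shares, since 2 libraries against 2 cannot reach an exact permutation p under 0.333.

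Round numbers in the labels pair the libraries: over 5633 genes the Round 1 minus Round 2 deviations correlated across genes, which are not independent, with Pearson r of 0.837 (both islet groups), 0.853 and 0.821 (islet non-binders and islet binders, each against spleen). Over the 24 members among them r was 0.940, -0.349 and -0.200, so their deviations did not move together between islets and spleen. As 2 libraries a group leave few degrees of freedom, the fit used for calls has no term for the round. Exocrine genes (8, led by Ctrb1) summed to 106 and 371 CPM, 35.4 and 131 CPM, and 2.91 and 2.03 CPM in islet non-binders, islet binders and spleen cells, and endocrine genes (7, led by Ppy) to 137 and 10.8 CPM, 5.44 and 13.9 CPM, and 0.104 and 0.145 CPM, whose part in the results was not tested. Leaving out cells with 5% or more exocrine UMIs or no T cell UMI, chosen after seeing the data, gave the same counts of members called between groups. Cd4, Cd40lg, Csf1r, Adgre1 and C1qa were at 0 in at least 1 library.

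Doublets were not called by a tool and ambient RNA was not removed. As an alternative, cells holding a second productive β chain were left out. Named genes are Mki67, Top2a, the member with the highest mean CPM of each role, the 3 largest changes past the threshold in each direction of a comparison, and of each other list up to 2 genes past it in the first comparison. Further alternatives were other limits on genes, thinning depths and thresholds, no Hmgb2, DESeq2 1.42.0 and its size factors, no filter, only the groups compared, the chain with the most UMIs, clone size over a round, cells with an antigen-experience gene, and each library left out.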

Additional observations from a re-analysis of the deposited data

Results flagged for a closer look

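The change with clone size differed between islet non-binders and spleen cells for 9 members, all among the 19 with enough spleen counts for a test by clone size, by a test of the difference itself (log2 fold change in the islets minus that in spleen). Over all genes 4.07% were called above 0 and 4.88% below. It was above 0 for Mcm2 (2.01), Mcm5 (1.76), Dut (1.16), Mcm6 (1.02), Smc2 (1.26) and Smc4 (1.21), the first 4 of which act in S phase. It was below 0 for Cks2 (-0.81), Cenpa (-0.94) and Kif23 (-1.09), 3 of 50 in the fit, near the share over all genes. Mcm5 is a helicase subunit and Smc2 the partner of Smc4 in condensin. Clones of 1 cell in spleen held 252 and 162 cells, against 1389 and 2959 in the islets, so the spleen side is the less precise. Cells of the smallest class were also deeper than others in spleen and shallower in the islets, and the part of depth was not tested.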

How the results depend on the processing

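Of 180 alternative values, 125 kept their side or size and 55 moved. A count of members called can stay or move but cannot reverse. Part of the 125 are counts of 0 members called lower that stayed at 0. These were 14 for each of the 2 comparisons with spleen and 10 for islet binder clones. The count of members higher in islet binders than in non-binders moved in 9 settings and stayed in 5. Leaving out cells that held a second productive β chain, DESeq2 size factors in edgeR and the chain with the most UMIs moved no count of members called higher by over 1.5 times. Among members the replicate block changed no other call than those given for the comparisons of groups. For each value below the cause was not tested. For islet binders against non-binders 1 member was called higher, and 41 were with the round as a replicate block, 0 with only these 2 groups, 16 by DESeq2, 17 with no filter, 43 with no upper limit and the block (chosen after seeing the data) and 0 to 0 with 1 library left out. Against spleen the 44 of islet binders became 27 to 41 with 1 library left out. The 34 of islet non-binders became 13 with 3500 genes in both tissues and 2 to 19 with 1 library left out. By clone size, the 45 of islet non-binders became 20 with no block. The 5 of spleen became 9 with no upper limit, 0 with no block, 8 with only antigen-experienced cells (chosen after seeing the data), 2 by DESeq2, 8 with no filter and 3 to 4 with 1 library left out. The 0 of islet binders became 8 with no upper limit, 7 with clone size over the round and 0 to 4 with 1 library left out.

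Differences in the share past the threshold were 14.3 points (islet binder minus islet non-binder), 23.5 points (islet binder minus spleen) and 9.14 points (islet non-binder minus spleen). In that order they were 10.1, 15.1 and 5.08 points at 5 UMIs or more, 16.4, 25.9 and 9.58 points at 6 of 2000 UMIs, 5.46, 28.4 and 23.0 points with no thinning, and 11.2, 19.2 and 8.0 points without Hmgb2. The second was 26.2 points and the third 11.1 points with no upper limit, and the third 8.55 points with 3500 genes in both tissues and 8.14 to 10.1 points with 1 library left out. In fits that leave a group with 1 library, that library is assumed to vary like the others. Depth limits spleen most, where 14 members had under 10 UMIs in a library and 31 could not be tested by clone size. With 2 pools of mice, p-values of the comparisons of groups measure the spread between pools, and those by clone size the spread of classes within libraries. In the spleen clone size fit that spread came almost wholly from all genes together. Very small p-values there do not measure how steady a single gene was between rounds. A UMI read in 1 gene only is counted, so transcripts of genes with near copies may be undercounted.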
